A study of Mus musculus with 40 samples.

Results

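The leukocyte microRNAs miR-223-3p, miR-142a-5p, miR-142a-3p and miR-21a-5p, which are abundant in white blood cells, were followed with age in small RNA libraries of total mouse blood, taken at 12, 13.5, 15 and 16.5 months. They were chosen by name (mmu-miR-223-3p, mmu-miR-142a-5p, mmu-miR-142a-3p and mmu-miR-21a-5p in the table, where mmu stands for the mouse) as 4 of the 1915 mature microRNAs in the deposited count table, of which 1016 had any read, and all 4 were detected. Male wild-type C57B/6J mice were bled repeatedly from the retro-orbital sinus, and 10 libraries were made at each age (40 in all). All groups share the strain, the sex and the blood source. The later bleeds followed a round of water maze testing, while the study describes the order at 12 months in more than 1 way, and the labels do not say which libraries came from mice kept without testing. Age, repeated bleeding and repeated testing therefore cannot be told apart. Nor do the labels say which libraries came from the same mouse, so the tests below treat libraries as separate, and their p-values measure the spread between libraries. The column names carry 10 numbers, each found once at each of the 4 ages. If these numbers mark mice, the main tests ignore that pairing. An edgeR fit of the levels with the number as a block is given among the alternatives. The permutation tests of ratios and shares have no such alternative.

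MicroRNAs are short RNAs cut from a folded precursor, the hairpin, whose 5p and 3p arms can each yield a mature strand. The mature strand guides the silencing complex to messenger RNAs, mainly through its seed, bases 2 to 8. miR-223 is known for its high level in neutrophils and other myeloid cells, where it restrains granulocyte maturation and inflammatory signalling. miR-142 is found across blood cell lineages and hardly outside them, and miR-21 is broadly expressed and is induced in activated immune cells. Because total blood was measured, a change in the mix of white and other blood cells and a change of a microRNA per cell cannot be told apart.

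The mature strands are shown because the seed in capitals is what each of them reads targets with, and because the strands of miR-142a, which gave the clearest differences, come from 1 hairpin. All 4 matched a RefSeq entry (GRCm38.p6, the assembly that mm10 names), and each is written 5′ to 3′.
miR-223-3p: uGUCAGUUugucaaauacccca
miR-142a-5p: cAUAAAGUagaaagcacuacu
miR-142a-3p: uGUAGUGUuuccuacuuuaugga
miR-21a-5p: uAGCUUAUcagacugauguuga
Their seeds differ from one another. Among the mature mouse microRNAs of that set, only miR-21c shares a seed with any of them, that of miR-21a-5p, and it had 0 reads in all 40 libraries. The hairpin of miR-142a is shown with its arms in capitals, since the balance between those arms is described below.
Mir142 hairpin: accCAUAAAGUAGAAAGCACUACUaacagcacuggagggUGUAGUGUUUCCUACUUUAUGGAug

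On GRCm38, miR-223-3p lies at chrX:96242884-96242905 on the plus strand. Its hairpin falls in an exon of the non-coding gene F630028O10Rik on the same strand. miR-142a-5p lies at chr11:87756867-87756887 and miR-142a-3p at chr11:87756903-87756925, both on the plus strand. The Mir142 hairpin lies inside the non-coding gene Mir142hg but in none of its annotated exons, and opposite the antisense microRNA gene Mir142b. miR-21a-5p lies at chr11:86584120-86584141 on the minus strand, within the last exon of Vmp1, in its untranslated part and on the same strand.

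The libraries held between 2469196 and 21386209 counts. The mean total was 14039100 at 12 months, 11387600 at 13.5 months, 6376770 at 15 months and 8878520 at 16.5 months. Depth thus differed with age, and the read counts given below cannot be compared between ages without scaling. Rows of miR-486, a red cell microRNA, took most of the counts. The rows of miR-486a and miR-486b are identical for the 5p and for the 3p strand, and all of them enter the totals. Totals are therefore larger, and shares outside these rows smaller, than with each strand counted once. The median share left outside those rows was 7.53% at 12 months, 6.80% at 13.5 months, 4.46% at 15 months and 7.37% at 16.5 months. The part of this shift in the values below was not tested. Of the marker lists, myeloid and general leukocyte microRNAs had 7 of 13 members past the filter of more than 100 reads in 20 of the 40 libraries, and lymphoid microRNAs had 4 of 5. Red cell microRNAs had 8 of 9 past it. The platelet and endothelial markers miR-126a-3p (median 3.5 reads) and miR-126a-5p (median 9 reads) did not pass, and of the liver markers miR-192-5p passed while miR-122-5p had 8 reads in all.

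The members ranked in the same order in all 40 libraries. Levels are given as log2 CPM, counts relative to the library's size after TMM scaling (CPM), on a log2 scale and with a prior count of 2. A read stands for a whole mature strand, and dividing by strand length kept the order in all 40 libraries. miR-142a-5p came first, with a mean level of 11.28 ± 0.33 log2 CPM (SD, n = 40), the 9th highest of the microRNAs detected. miR-21a-5p followed at 7.20 ± 0.61 log2 CPM (SD, n = 40), rank 36, and miR-223-3p at 4.36 ± 0.51 log2 CPM (SD, n = 40), rank 78. miR-142a-3p was the least abundant, with 2.60 ± 1.25 log2 CPM (SD, n = 40), rank 118. Within a library, miR-142a-5p had a median of 17.3 times the reads of miR-21a-5p, and the level ranges of the 2 did not overlap. miR-21a-5p had a median of 7.35 times the reads of miR-223-3p, again without overlap of the ranges. The ranges of miR-223-3p and miR-142a-3p did overlap, although miR-223-3p had more reads in each library (median ratio 3.07). The opposite arms of the other hairpins were rare. miR-223-5p summed to 164 reads against 9881 for miR-223-3p, and miR-21a-3p to 414 reads against 73618 for miR-21a-5p. miR-21b had 0 reads, and the antisense miR-142b, whose 20 bases are the reverse complement of a stretch of miR-142a-3p, had 6 reads in 5 libraries.

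**Figure D1:**
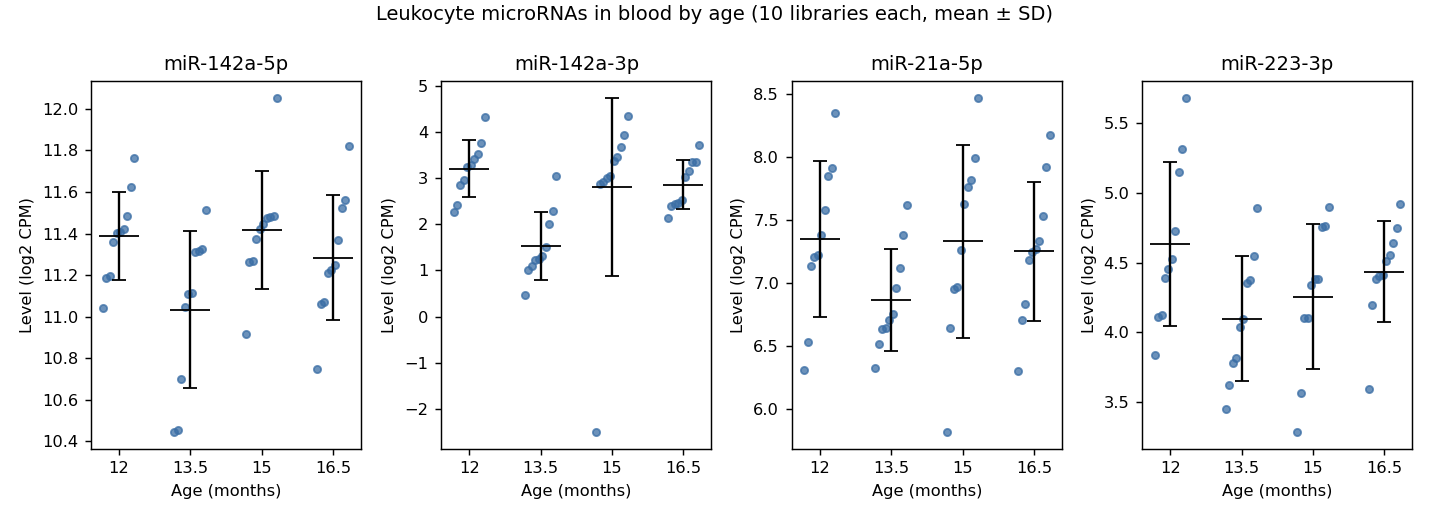
Level of each microRNA (log2 CPM, y axis, a different range in each panel) in 10 libraries at each age in months (x axis). Each point is 1 library, the long bar is the mean and the whiskers are the SD. At 13.5 months all 4 means lie below those at 12 months, the distance being largest for miR-142a-3p (1.52 against 3.20), and the point at -2.50 is the 15-month library without a miR-142a-3p read.

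miR-142a-3p, the rare strand of its hairpin, showed the largest differences between ages of the 4. It had between 67 and 317 reads at 12 months (median 140.5), between 8 and 76 reads at 13.5 months (median 36), between 0 and 137 reads at 15 months (median 40.5) and between 18 and 157 reads at 16.5 months (median 56.5). In log2 CPM the lowest, median and highest libraries were 2.27, 3.27 and 4.32 at 12 months and 0.47, 1.28 and 3.04 at 13.5 months. They were -2.50, 3.21 and 4.35 at 15 months and 2.13, 2.78 and 3.72 at 16.5 months. The 13.5-month libraries were thus low, yet they overlapped with every other age. With only 11 of 40 libraries over 100 reads, miR-142a-3p was left out by the filter, and it was tested by the same edgeR quasi-likelihood model over the 345 microRNAs with more than 1 read in 20 of the 40 libraries. It changed over age (adjusted p = 7.75e-05), as did 39.1% of those tested. It fell by 1.69 on the log2 scale (SE 0.31) from 12 to 13.5 months, 3.23-fold lower (edgeR adjusted p = 6.54e-05), with 10 of 10 libraries below the 12-month mean. In that comparison 15.7% of the 345 were called and 9.86% were called lower. At 15 months it was 1.74 higher in log2 fold change than at 13.5 months (SE 0.32, 3.33-fold, edgeR adjusted p = 3.94e-05), with 9 of 10 libraries above the 13.5-month mean while 27% of the 345 were called and 12.8% called higher. At 16.5 months it was 1.23 higher than at 13.5 months (SE 0.31, 2.35-fold, edgeR adjusted p = 0.00322), in 10 of 10 libraries, with 21.4% called and 9.86% called higher. With library totals in place of TMM factors the last of these differences was 1.04 and did not pass (edgeR adjusted p = 0.117), whereas the other calls held.

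The 15-month library without a miR-142a-3p read held 6472206 counts, of which 3028 were miR-142a-5p. A count of 0 allows up to 3 reads, or 1.91 CPM in this library, counting error only. It was the library with the smallest part outside the miR-486 rows at 15 months (1.77%), and it also had the lowest level of the other 3 microRNAs at that age. No difference of miR-142a-3p was called between 15 and 12 months (log2 fold change 0.04, 95% interval -0.54 to 0.63), 16.5 and 12 months (-0.46, -1.05 to 0.13) or 16.5 and 15 months (-0.51, -1.11 to 0.10), where 11.3%, 13.9% and 12.5% of the 345 were called.

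miR-142a-5p, the main strand of the same hairpin, differed by far less. Its counts ran from 28171 to 63059 at 12 months (median 43488.5) and from 15798 to 59216 at 13.5 months (median 24821). They ran from 3028 to 19114 at 15 months (median 14542) and from 3275 to 51163 at 16.5 months (median 26537). The lowest, median and highest levels were 11.04, 11.41 and 11.76 log2 CPM at 12 months and 10.44, 11.11 and 11.51 at 13.5 months. At 15 months they were 10.92, 11.44 and 12.05, and at 16.5 months 10.75, 11.24 and 11.82. All ages overlapped, with the 3 lowest libraries of all 40 at 13.5 months. The level at 15 months was 0.37 higher in log2 fold change than at 13.5 months (SE 0.13, 1.29-fold, edgeR adjusted p = 0.0209), in 9 of 10 libraries. In that comparison 47.6% of the 105 microRNAs tested were called and 17.1% were called higher, so a call there was common. This call rested on the 15-month library with the highest level (12.05): without it the difference was 0.28 (edgeR adjusted p = 0.0688). With library totals alone the difference turned to -0.39 (edgeR adjusted p = 0.202), while the median of all 105 moved from -0.02 to -0.81. From 12 to 13.5 months the log2 fold change was -0.33 (SE 0.13, edgeR adjusted p = 0.0581), which did not pass, though it passed in 26 of 40 fits that left out 1 library and in 5 of 10 other alternatives, and the remaining 4 differences lay between -0.13 and 0.24. In those 4 comparisons, in the order 15 v 12, 16.5 v 12, 16.5 v 13.5 and 16.5 v 15 months, 23.8%, 23.8%, 40% and 28.6% of the 105 were called.

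miR-223-3p, the myeloid microRNA, had between 203 and 525 reads at 12 months (median 429.5) and between 89 and 477 at 13.5 months (median 195.5). It had between 15 and 200 reads at 15 months (median 109) and between 29 and 541 at 16.5 months (median 251). Its lowest, median and highest levels were 3.84, 4.49 and 5.68 log2 CPM at 12 months and 3.45, 4.07 and 4.89 at 13.5 months. They were 3.28, 4.36 and 4.90 at 15 months and 3.60, 4.46 and 4.92 at 16.5 months. The 3 highest libraries of all were from 12 months, and every pair of ages overlapped. From 12 to 13.5 months miR-223-3p fell by 0.59 on the log2 scale (SE 0.21), 1.50-fold lower (edgeR adjusted p = 0.0281), with 9 of 10 libraries below the 12-month mean. Of the 105 tested, 29.5% were called in that comparison and 14.3% were called lower. The call depended on 12-month libraries: without the one at 5.68 log2 CPM the difference was -0.47 (edgeR adjusted p = 0.0812), and without the one at 5.15 log2 CPM it was -0.54 (edgeR adjusted p = 0.0540). With library totals alone it was -0.61 (edgeR adjusted p = 0.325), and with no filter on low counts -0.65 (edgeR adjusted p = 0.0671). The other 5 differences were not called. At 15 against 12 months the log2 fold change was -0.39 (95% interval -0.81 to 0.02), and at 16.5 against 12 months it was -0.26 (-0.67 to 0.15).

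miR-21a-5p, the broadly expressed member, had no called difference. Its counts ran from 958 to 4540 at 12 months (median 3198.5), from 606 to 2872 at 13.5 months (median 1621), from 88 to 2390 at 15 months (median 866.5) and from 157 to 5190 at 16.5 months (median 1744.5). The lowest, median and highest levels were 6.31, 7.30 and 8.34 log2 CPM at 12 months and 6.32, 6.73 and 7.62 at 13.5 months. At 15 months they were 5.82, 7.44 and 8.47, and at 16.5 months 6.30, 7.26 and 8.18. Its libraries spread more widely within an age than those of miR-142a-5p (SD up to 0.77 against up to 0.38 log2 CPM), and the ages overlapped throughout. The largest differences were 0.58 at 15 against 13.5 months (SE 0.26, edgeR adjusted p = 0.0556) and -0.54 at 13.5 against 12 months (SE 0.25, edgeR adjusted p = 0.102). Between 15 and 12 months it was 0.04 (95% interval -0.46 to 0.54). The first of these passed under median-ratio factors (0.71, edgeR adjusted p = 0.0177) and was -0.07 (edgeR adjusted p = 0.887) with library totals alone.

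Tested over all 4 ages together, none of the 3 microRNAs past the filter was called, whereas 61% of the 105 tested were. The adjusted p was 0.0652 for miR-142a-5p, 0.0750 for miR-223-3p and 0.155 for miR-21a-5p by edgeR's quasi-likelihood test. By DESeq2 they were 0.00749, 0.0275 and 0.0382, all past the threshold of 0.05.

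**Figure D2:**
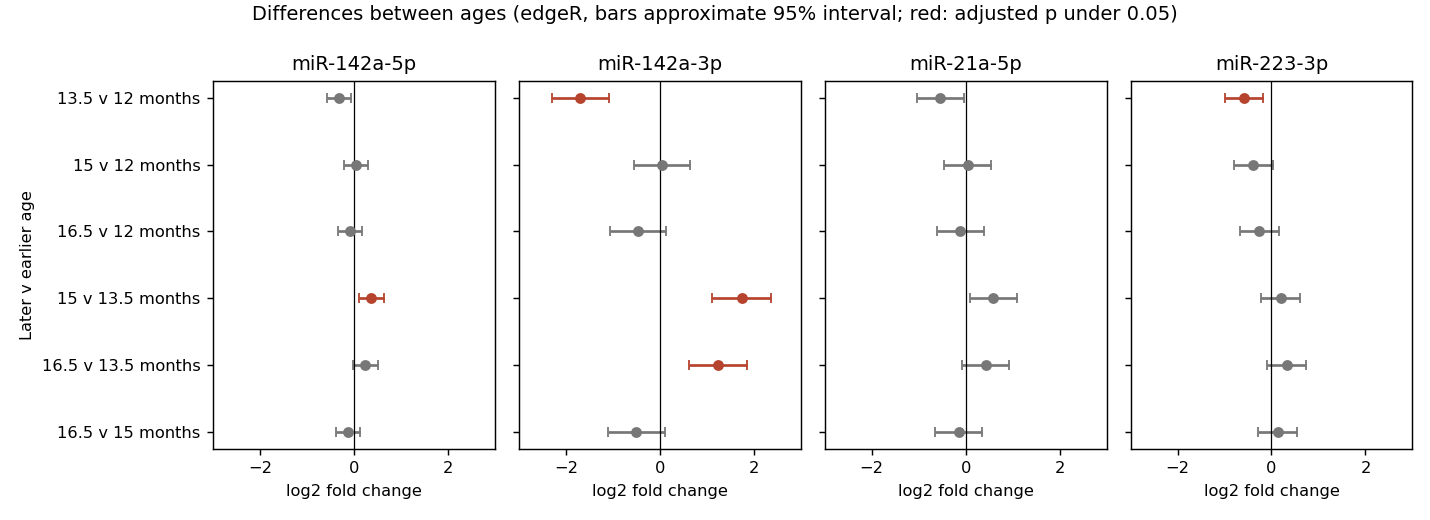
log2 fold change (x axis) of each microRNA for the 6 pairs of ages (y axis), as the later minus the earlier age, with bars for the approximate 95% interval from edgeR. Differences at an adjusted p under 0.05 are red: 13.5 v 12, 15 v 13.5 and 16.5 v 13.5 months for miR-142a-3p, 15 v 13.5 months for miR-142a-5p and 13.5 v 12 months for miR-223-3p.

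**Figure D3:**
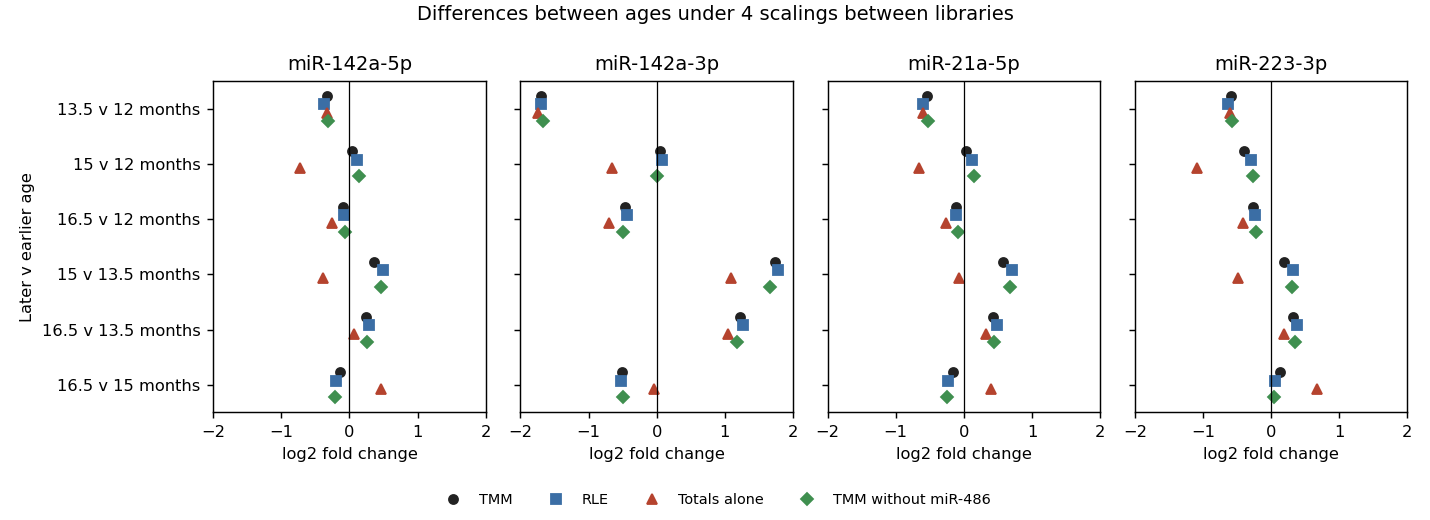
The same log2 fold changes (x axis) for the 6 pairs of ages (y axis) under 4 scalings between libraries: TMM, median-ratio factors (RLE), library totals alone and TMM without the miR-486 rows. The values with totals alone stand apart wherever 15 months is compared (for miR-142a-5p at 15 v 12 months -0.72 against 0.04), while the fall of miR-142a-3p from 12 to 13.5 months lies near the same place under all 4.

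The balance of the 2 arms of miR-142a is a ratio of counts within a library and does not depend on scaling between libraries. At 12 months a library held 175 to 532 reads of miR-142a-5p for each read of miR-142a-3p (median 308), with 0.5 added to both counts. At 13.5 months it held 313 to 2006 (median 748), and at 16.5 months 169 to 713 (median 354). At 15 months the range was 121 to 6057 (median 320), the upper end being the library without a 3p read, where the true ratio is at least 1009 if up to 3 reads were missed. The 13.5-month libraries were the high ones, and they overlapped with each other age. On the log2 scale the means were 8.21 ± 0.58, 9.59 ± 0.75, 8.53 ± 1.52 and 8.45 ± 0.76 (SD, n = 10 each) from 12 to 16.5 months. The ratio at 13.5 months was 1.38 higher than at 12 months, 2.60-fold, with 10 of 10 libraries above the 12-month mean (two-sided permutation test, p = 0.00038, adjusted p = 0.00912 over 24 tests of 4 ratios at 6 pairs of ages). The log2 difference at 16.5 against 13.5 months was -1.13, with 10 of 10 libraries below the 13.5-month mean, which missed the threshold (permutation p = 0.00429, adjusted p = 0.0515). The difference at 15 against 13.5 months was -1.06 (permutation p = 0.0599, adjusted p = 0.352). Without the library that had no 3p read it was -1.51 and passed (exact permutation test, adjusted p = 0.00312). As a share of the reads of both arms, miR-142a-3p took 0.363% at 12 months (95% Wilson interval 0.346 to 0.381), 0.139% at 13.5 months (0.126 to 0.153), 0.402% at 15 months (0.369 to 0.438) and 0.267% at 16.5 months (0.248 to 0.287). These intervals cover counting error only and not the spread between libraries. At 15 months 1 library gave 137 of the 524 reads of miR-142a-3p, and without the library with the most such reads the share was 0.334% at 12 months and 0.341% at 15 months. The medians of the libraries were 0.323% at 12 months and 0.307% at 15 months.

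**Figure D4:**
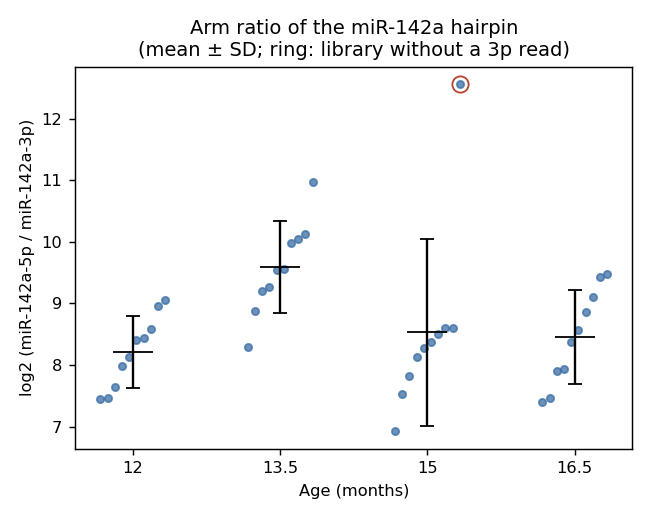
log2 ratio of miR-142a-5p to miR-142a-3p counts (y axis, 0.5 added to both) in 10 libraries at each age in months (x axis), with mean and SD. The mean is highest at 13.5 months (9.59), and the ringed library at 12.56 is the 15-month library without a 3p read.

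The same ratio was computed for 69 hairpins with reads from both arms. From 12 to 13.5 months their mean log2 ratios changed by between -1.42 and 1.38 with a median of -0.08, and miR-142a was at the top of that range. By size of change in either direction it ranked 2. The ratio of miR-223 changed by -0.16 and that of miR-21a by -0.34 over the same interval, both with few reads of the rare arm. From 13.5 to 16.5 months miR-142a ranked 11 of the 69 by size, with a change of -1.13 against a median of -0.01.

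**Figure D5:**
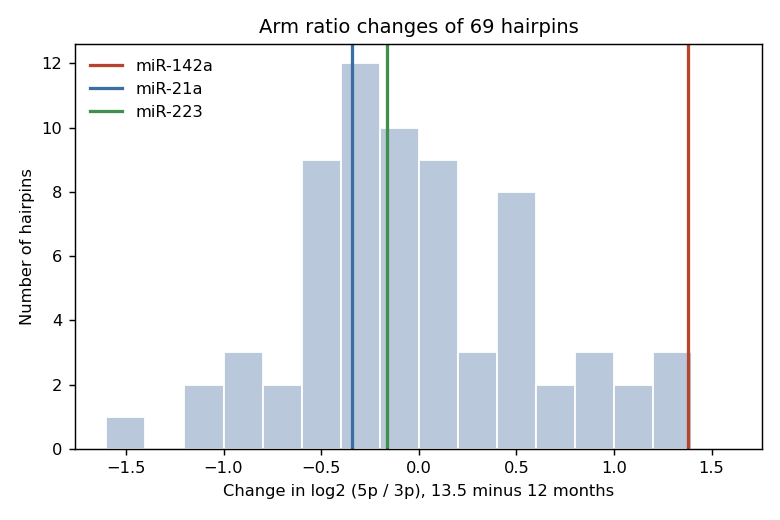
Number of hairpins (y axis) by their change in mean log2 ratio of the 5p to the 3p arm from 12 to 13.5 months (x axis), for 69 hairpins. Vertical lines mark miR-142a (1.38), miR-223 (-0.16) and miR-21a (-0.34), and miR-142a lies at the upper end.

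Between the main strands no difference in proportion passed the test. The log2 ratio of miR-223-3p to miR-142a-5p had means between -7.16 (15 months) and -6.77 (12 months), that of miR-21a-5p to miR-142a-5p between -4.17 (13.5 months) and -4.04 (16.5 months), and that of miR-223-3p to miR-21a-5p between -3.07 (15 months) and -2.72 (12 months). Of the 18 comparisons of these 3 ratios between ages, 0 passed the adjustment and 0 had an unadjusted p under 0.05 (two-sided permutation tests). The largest difference was -0.40 for miR-223-3p to miR-142a-5p at 15 against 12 months (permutation p = 0.0791, adjusted p = 0.352).

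As a share of the counts outside the miR-486 rows, miR-142a-5p took a mean of 4.64 ± 0.67%, 3.78 ± 0.90%, 4.82 ± 1.09% and 4.17 ± 1.05% (SD, n = 10 each) from 12 to 16.5 months. miR-21a-5p took 0.300 ± 0.114%, 0.211 ± 0.061%, 0.316 ± 0.153% and 0.267 ± 0.107%. miR-223-3p took 0.0446 ± 0.0165%, 0.0309 ± 0.0097%, 0.0352 ± 0.0130% and 0.0362 ± 0.0090%. For these 3 the lowest adjusted p over all pairs of ages was 0.135 (permutation tests adjusted over 24). The share of miR-142a-3p was 0.0166 ± 0.0065% at 12 months, 0.0055 ± 0.0038% at 13.5 months, 0.0175 ± 0.0093% at 15 months and 0.0121 ± 0.0042% at 16.5 months. The 13.5-month share lay under that of 12 months (permutation test, adjusted p = 0.00672), and the shares of 15 and 16.5 months lay above it (permutation tests, adjusted p = 0.0139 and 0.0185). On a log2 scale, where the library without a read weighs more, the difference at 15 against 13.5 months did not pass (adjusted p = 0.147).

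Over the 40 libraries all 6 pairs of members had a positive correlation of their levels, but this did not hold for miR-142a-3p within 16.5 months. The closest pair was miR-223-3p and miR-21a-5p (Pearson r = 0.722, adjusted permutation p = 3e-05; Spearman rho = 0.661, adjusted permutation p = 6e-05), and r was 0.637 without the 2 libraries farthest from the median. Within an age it was 0.528 at 12, 0.590 at 13.5, 0.939 at 15 and 0.837 at 16.5 months. The arms of miR-142a were the loosest pair (r = 0.435, adjusted permutation p = 0.00668; rho = 0.337, adjusted permutation p = 0.0337). For them r was 0.357 without the 2 farthest libraries, and 0.377, 0.284, 0.601 and -0.570 within the 4 ages in order. With miR-223-3p, miR-142a-3p had r of 0.646, 0.355, 0.777 and -0.018 within the ages, and with miR-21a-5p 0.769, 0.733, 0.818 and -0.011. All 6 pairs of members were computed, the points share a library, its scaling and its red cell content, and libraries of 1 mouse at several ages would not be independent.

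Among the microRNAs tested, those most like miR-223-3p over the 40 libraries were miR-30e-5p (Pearson r = 0.739), miR-21a-5p (0.722) and miR-24-3p (0.717). For miR-142a-5p they were miR-194-5p (0.692), miR-19b-3p (0.691) and miR-451a (0.636), the last a red cell microRNA. For miR-142a-3p they were miR-144-5p (0.703), also of red cells, miR-19b-3p (0.688) and miR-21a-5p (0.686), with r of 0.335, -0.084 and -0.011 within 16.5 months. The closest of all was miR-451a to miR-21a-5p (0.849), with r from 0.704 to 0.929 within the ages. Then came miR-30e-5p (0.836) and miR-194-5p (0.812). These correlations are a description of libraries that share scaling and depth.

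Marker microRNAs of other blood cells were set beside the members at 13.5 months, where the members' means were lowest. Of the 7 tested myeloid and general leukocyte microRNAs, which include 3 of the members, 1 was lower (14.3% of the 105 were) and 0 were higher at 13.5 than at 12 months. The median log2 fold change was -0.33 against 0.01 for all 105. The lower one was miR-223-3p and the median is the value of miR-142a-5p, so both results come from members. The rest, miR-146a-5p (0.24), miR-23a-3p (0.12), miR-146b-5p (-0.26) and miR-24-3p (-0.54), were not called. Of the 4 tested lymphoid microRNAs, 2 were higher (15.2% of the 105 were) and 0 lower, with a median of 0.83. The pair was miR-181a-5p (1.25, SE 0.15, edgeR adjusted p = 2.22e-08) and miR-181b-5p (0.96, SE 0.15, edgeR adjusted p = 3.2e-06), both of the miR-181 family and known for roles in lymphocyte development. The more abundant miR-150-5p (0.69) and miR-342-3p (0.37) were not called. The summed level of the lymphoid list ran from 7.85 to 8.98 log2 CPM at 12 months and from 8.78 to 9.71 at 13.5 months. The summed level of the myeloid and general list ran from 11.21 to 11.97 and from 10.60 to 11.67. Most of that sum is miR-142a-5p, which alone ran from 11.04 to 11.76 and from 10.44 to 11.51. Of the 8 tested red cell microRNAs, 2 were lower at 13.5 than at 12 months, miR-451a (-0.84, SE 0.33, edgeR adjusted p = 0.0495) and miR-144-5p (-1.60, SE 0.29, edgeR adjusted p = 3.01e-05). Over all 105, 14.3% were called lower there, and miR-486a-5p (-0.01), miR-16-5p (0.05) and miR-92a-3p (0.11) were among the red cell rows not called. At 15 against 13.5 months 3 of the 8 red cell rows were higher, miR-144-5p (1.24, SE 0.30, edgeR adjusted p = 0.00059) and miR-486a-5p, whose row is identical to that of miR-486b-5p (each 1.02, SE 0.24, edgeR adjusted p = 0.00059). The rise of the miR-486 rows depends on the TMM scaling. At both ages these rows held most counts, with a median of 6.80% left outside at 13.5 months and 4.46% at 15 months. In the same comparison miR-16-5p was lower (-0.55, SE 0.16, edgeR adjusted p = 0.00407), and miR-451a (0.59) and miR-92a-3p (0.10) were not called. The summed red cell level ran from 19.25 to 20.25 log2 CPM at 12 months, from 19.03 to 19.95 at 13.5 months, from 19.95 to 21.96 at 15 months and from 19.09 to 20.99 at 16.5 months. This sum counts the identical rows of miR-486a and miR-486b both. CPM is relative to the TMM-scaled size, which can lie below a library's counts. In the 15-month library without a miR-142a-3p read that size was 1567460 against 6472206 counts. The sum is therefore not a share of the library, and the part of the scaling in its higher 15-month range was not tested. The part of other cell types in the differences of the members was not tested.

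Over all ages 61% of the 105 tested were called. Of the 7 myeloid and general leukocyte microRNAs 3 were called, none of them a member: miR-146a-5p, a regulator of inflammatory signalling (edgeR adjusted p = 0.00545), miR-23a-3p (edgeR adjusted p = 0.00185) and miR-146b-5p (edgeR adjusted p = 0.0464), the last named after its values were seen. All 4 tested lymphoid microRNAs were called, and so was miR-192-5p, the 1 liver marker tested. Of the 8 red cell rows 4 were called: miR-486a-5p, its identical copy miR-486b-5p, miR-16-5p and miR-144-5p. At 16.5 against 12 months, where 13.3% of the 105 were called higher, the myeloid and general list had 2 higher and 0 lower, miR-146a-5p (0.73, SE 0.27, edgeR adjusted p = 0.0432) and miR-23a-3p (0.37, SE 0.12, edgeR adjusted p = 0.0239). Of the 4 lymphoid microRNAs 3 were higher and 0 lower there. In the same comparison the members stood at -0.26 (miR-223-3p), -0.09 (miR-142a-5p) and -0.11 (miR-21a-5p), none of them called.

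Library names share 1 form between 12 and 16.5 months, ending in a letter alone. At 13.5 and 15 months they end in a letter and a number, the letter being A at 13.5 months and B or C at 15 months. Where the names differ between ages, a technical series, if they mark one, cannot be told apart from age. Within 15 months the names carry 2 letters. The 3 libraries with the letter B had a median of 11.48 log2 CPM for miR-142a-5p and 3.37 for miR-142a-3p, and the 7 with the letter C had 11.42 and 3.05. For miR-21a-5p the medians were 7.26 and 7.76, and for miR-223-3p 4.10 and 4.38.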

How the data were processed

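Total blood of ageing mice was profiled at 12, 13.5, 15 and 16.5 months (10 small RNA libraries each), grouped by the ages in the labels. Per the study's methods, the authors trimmed adapters, mapped reads with miRDeep2 to mm10 and miRBase precursors, and deposited raw counts per mature microRNA, summed over genomic locations. Their second table, a normalized signal, was not used. Counts were tested with edgeR 4.0.16 (R 4.3.3, TMM, glmQLFit, glmQLFTest) over age and for 6 pairs of ages, keeping microRNAs with more than 100 reads in 50% of libraries (105), adjusted by Benjamini-Hochberg (threshold 0.05). miR-142a-3p did not pass and was tested with a filter of more than 1 read (345). Standard errors were derived from each log2 fold change and its F statistic. Ratios and shares were compared by permutation (100000 resamples). DESeq2 1.42.0 was an alternative, and the processing notes name FastQC 0.11.5. The model was tested on simulated counts. Libraries held 2469196 to 21386209 counts, so that miR-142a-3p often rests on few reads, and reads without molecular identifiers are not independent molecules. No 2 libraries of an age were duplicates (smallest chi-square per degree of freedom 19.4 in 180 pairs). The columns carry an age and 1 of 10 numbers, each found once at each of the 4 ages, but not the labels' replicate numbers. The number's link to a mouse is not given in the sources used here. Deviations of same-numbered libraries had a median correlation of -0.03 over 60 pairs, against 0.01 for the others. These 60 ran from -0.87 to 0.86, with 24 over 0.1, so the median does not settle that link. Positions of the mature strands come from the RefSeq entries (GRCm38.p6), and the genes and exons around the hairpins from GENCODE M21. The members and lists were chosen with earlier results of these data known. The text names the members, their other arms and near-copies, seed sharers, the 3 microRNAs most like each member and up to 4 of each marker list.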

Additional observations from a re-analysis of the deposited data

Results flagged for a closer look

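Of 48 groups of 10 libraries examined, 5 had a highest or lowest library whose distance to the next exceeded Dixon's 95% critical share of the group's range, which chance alone gives in about 1 of 20 groups. At 15 months the highest library for miR-142a-5p stood at 12.05 log2 CPM. The lowest 15-month library for miR-142a-3p stood at -2.50 log2 CPM, the library with 0 reads of it, and the same library gave the highest log2 ratio of miR-142a-5p to miR-142a-3p at that age, 12.56. At 12 months the highest log2 ratio of miR-223-3p to miR-21a-5p was -1.22, and at 13.5 months the highest share of miR-142a-3p outside the miR-486 rows was 0.0150%.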

How the results depend on the processing

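The lower level of miR-142a-3p at 13.5 than at 12 months kept its direction and its side of the threshold under each scaling, filter, test, block and left-out library tried. Its lower share did so on a log2 scale and with each library left out, and the higher ratio of its arms with 1 added to both counts and with each library left out. The calls for miR-223-3p (13.5 v 12 months) and miR-142a-5p (15 v 13.5 months) did not. All p-values below are adjusted, differences are log2 fold changes of the later against the earlier age, and where no cause is named it was not tested.

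With median-ratio factors the adjusted p over age was 0.0457 for miR-223-3p and 0.0166 for miR-142a-5p, and the differences -0.38 (miR-142a-5p, 13.5 v 12) and 0.71 (miR-21a-5p, 15 v 13.5) passed. With DESeq2 the p over age was 0.0275 for miR-223-3p, 0.00749 for miR-142a-5p and 0.0382 for miR-21a-5p, and -0.38 (miR-142a-5p, 13.5 v 12), -0.60 (miR-21a-5p, 13.5 v 12) and 0.71 (miR-21a-5p, 15 v 13.5) passed. With 1 factor of unwanted variation the p over age was 0.0268 for miR-142a-5p and 0.00625 for miR-21a-5p. Then -0.28 (miR-142a-5p, 13.5 v 12), 0.39 and 0.40 (miR-21a-5p, 15 and 16.5 v 13.5) passed, and miR-21a-5p turned to 0.15 at 16.5 v 12 and 0.010 at 16.5 v 15, without passing. Without the miR-486 rows miR-142a-5p passed over age (0.0186), miR-21a-5p passed at 15 v 13.5 (0.68), and miR-142a-3p was at -0.001 for 15 v 12.

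With library totals alone miR-223-3p passed over age (0.0344), its 13.5 v 12 difference (-0.61) did not, 15 v 12 (-1.09) did, and 15 v 13.5 turned to -0.49. For miR-142a-5p 15 v 12 turned to -0.72, which passed, 15 v 13.5 to -0.39 and 16.5 v 15 to 0.46. For miR-142a-3p 15 v 12 turned to -0.65, and 16.5 v 13.5 (1.04) no longer passed. For miR-21a-5p 15 v 12 turned to -0.66, 15 v 13.5 to -0.067 and 16.5 v 15 to 0.40. This scaling moved the median of all 105 to -0.84 (15 v 12), -0.25 (16.5 v 12), -0.81 (15 v 13.5), -0.16 (16.5 v 13.5) and 0.65 (16.5 v 15), and the higher and lower calls from 16 and 15 to 9 and 3 (13.5 v 12), 8 and 17 to 2 and 82 (15 v 12), 14 and 11 to 2 and 3 (16.5 v 12), 18 and 32 to 2 and 71 (15 v 13.5), 19 and 23 to 4 and 24 (16.5 v 13.5) and 20 and 10 to 64 and 2 (16.5 v 15). Median-ratio factors gave 9 and 12 (15 v 12), 27 and 30 (15 v 13.5) and 19 and 15 (16.5 v 15).

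Without a filter the differences -0.65 (miR-223-3p, 13.5 v 12) and 0.34 (miR-142a-5p, 15 v 13.5) lost their calls, and 15 v 12 turned to -0.058 (miR-142a-5p), -0.035 (miR-142a-3p) and -0.066 (miR-21a-5p). With 2 ages at a time in the fit, miR-21a-5p passed at -0.55 (13.5 v 12) and 0.68 (15 v 13.5). Without the 1 library beyond a connectivity Z-score of 2.5, -0.34 (miR-142a-5p, 13.5 v 12) and 0.59 (miR-21a-5p, 15 v 13.5) passed. With age as a line miR-142a-3p did not pass (0.924). With the number in the column names as a replicate block, a fit added after seeing the data, miR-223-3p passed over age (0.0269), miR-142a-5p passed at -0.33 (13.5 v 12), and miR-21a-5p was at -0.036 for 15 v 12. It changed no other call. Numbers of microRNAs called over age were 64, against 135 with more than 1 read, 113 without a filter and 21 with age as a line. With 1 added to both counts the arm ratio at 16.5 v 15 was 0.022. On a log2 scale the share of miR-142a-3p was -0.29 (15 v 12) and 1.41 (15 v 13.5, no longer passing).

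Leaving out 1 library in turn, which changed the library that TMM takes as its reference in 29 of 40 fits and left 102 to 105 microRNAs, gave these ranges. The p over age ran from 0.0174 to 0.155 for miR-223-3p, from 0.0165 to 0.0922 for miR-142a-5p (29 of 40 under the threshold) and from 0.0488 to 0.189 for miR-21a-5p. The difference at 13.5 v 12 ran from -0.74 to -0.47 for miR-223-3p, from -0.42 to -0.32 for miR-142a-5p (26 of 40 under the threshold) and from -0.70 to -0.48 for miR-21a-5p. At 15 v 13.5 it ran from 0.28 to 0.50 for miR-142a-5p and from 0.52 to 0.77 for miR-21a-5p (34 of 40 under the threshold). At 15 v 12 it ran from -0.046 to 0.13 for miR-142a-5p, from -0.13 to 0.21 for miR-142a-3p and from -0.046 to 0.21 for miR-21a-5p. It ran from 0.24 to 0.37 for miR-142a-5p at 16.5 v 13.5 and from -0.22 to 0.02 for miR-21a-5p at 16.5 v 12. The arm ratio ran from -0.13 to 0.50 (15 v 12), from -1.51 to -0.88 (15 v 13.5), from -1.28 to -0.98 (16.5 v 13.5) and from -0.26 to 0.37 (16.5 v 15). The share of miR-142a-3p differed by -0.000858 to 0.00283 percentage points (15 v 12) and by -0.00735 to -0.00366 (16.5 v 15). Of the shares of the other 3 microRNAs, 0 to 2 comparisons were called. The 2 came without the 15-month library that lacked miR-142a-3p.

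Depth limits miR-142a-3p most, at a median of 36 reads at 13.5 months.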
